A study of Homo sapiens with 12 samples.

Results

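The E2 by TNFα interaction describes how far the response to tumor necrosis factor alpha (TNFα) changed when cells had received estradiol (E2). For each gene it is the log2 change from E2 to E2+TNFα minus the log2 change from vehicle to TNFα. A negative value means that TNFα raised the gene less, or lowered it more, in the presence of E2, and a positive value means the opposite. All 12 RNA-seq libraries of the series enter it, and 11303 of 12451 gene entries were tested. These had 3 or more libraries in which RPKM, the reads per kilobase of exon and per mega (M) reads of the library, reached 1. The cells were MDA-MB-231-ERβ, a triple negative breast cancer (TNBC) cell line engineered to express full-length estrogen receptor beta (ERβ) when doxycycline (dox) is added. Each of the 4 groups had 3 replicate dishes. In 2 groups cells were grown for 5 days with ethanol vehicle and in 2 groups with E2 at 1 nM, and 1 group of each kind had TNFα added at 20 ng/ml 3 h before harvest. The groups are called vehicle, E2, TNFα and E2+TNFα. All carried the ERβ construct and dox. For E2+TNFα, dox is not in the treatment label and is taken from the protocol. Everything below therefore concerns 1 engineered line with ERβ induced, and a group without dox was not analysed here.

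E2 binds ERβ, a nuclear receptor that regulates transcription at its DNA elements and through other transcription factors. TNFα binds receptors at the cell surface and releases NFκB dimers, of which p65 (RELA) is the main activating subunit, from the inhibitor IκBα. Nuclear NFκB then induces cytokines, chemokines and its own inhibitors within hours. The integrated stress response works differently: shortage of amino acids or stress of the endoplasmic reticulum lowers general translation while raising that of the transcription factor ATF4, which induces genes of amino acid synthesis and transport.

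The labelled cell type was checked first. All 10 marker genes listed for MDA-MB-231 cells, among them VIM, CD44 and AXL, were tested, which shows expression and not cell type. The list also held the epithelial keratins KRT8, at 632 to 4070 CPM (counts per M reads), and KRT18, at 416 to 2520 CPM. VIM was at 1040 to 1670 CPM, EGFR at 58.1 to 283 CPM and ANXA1 at 7.81 to 362 CPM. Of 10 luminal breast markers, 5 were in the table, and their summed level was 283 to 346 CPM without E2 and 2000 to 3170 CPM with it. KRT19, a keratin at 250 to 3110 CPM, carried this sum, and GATA3, EPCAM, ERBB3 and CDH1 were at most at 53.4 CPM. Of 10 leukocyte markers only CD14, LYZ and CD68 were in the table, with a summed level of 76.6 to 109 CPM in all groups. Of 8 fibroblast markers 4 were in the table, with a summed level of 22.9 to 27 CPM without E2 and 5.97 to 13.5 CPM with it. Library totals were 7.65 to 39.9 M counts, lowest in the E2 group (7.65 to 15.8 M). The vehicle libraries stood apart from the other 9. Their rank correlation across genes with libraries of other groups was 0.706 to 0.863, whereas it was 0.928 to 0.989 between libraries of the other 3 groups and 0.973 to 0.998 between replicates. The first principal component, 68.7% of the variance, separated vehicle from the rest, and the second, 19.6%, separated TNFα from E2 and E2+TNFα. The vehicle group enters each interaction value and cannot be left out of it. The 2 contrasts that do not use it, E2+TNFα relative to E2 and relative to TNFα, are therefore given beside the results. The labels name no batches, so what sets the vehicle cultures apart and the lack of treatment cannot be told apart.

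A gene was called when the interaction was at least 1.5 on the log2 scale in either direction, with p under 0.05 and a Benjamini-Hochberg adjusted p of at most 0.1 in edgeR's quasi-likelihood test. Of the 11303 genes, 3593 (31.8%) were called, with 2543 positive (22.5%) and 1050 negative (9.29%). To see which group drove each value, a group was said to stand apart when the gap between its mean log2 level and the nearest other mean exceeded the range of the other 3. Among called genes the vehicle group stood apart for 2992 (83.3%), the TNFα group for 276, the E2 group for 16 and the E2+TNFα group for 0, and no single group did for 309. Across all tested genes the corresponding counts were 6195, 1373, 251 and 178, with 3306 for no single group. The vehicle class had 2211 positive and 781 negative genes (19.6% and 6.91% of all tested). In it the 3 treated groups mostly resembled each other, with a median range of 0.55 (log2) among their means. In the positive set the median log2 change from vehicle was -2.27 with E2 and -2.19 with TNFα, and from E2 to E2+TNFα it was 0.34. In the TNFα class, with 136 positive and 140 negative genes (1.2% and 1.24%), the levels in TNFα lay away from those in vehicle, E2 and E2+TNFα. The median negative gene rose by 1.82 with TNFα alone and changed by -0.20 from E2 to E2+TNFα. Genes with no single group apart were 182 positive and 127 negative (1.61% and 1.12%).

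**Figure D1:**
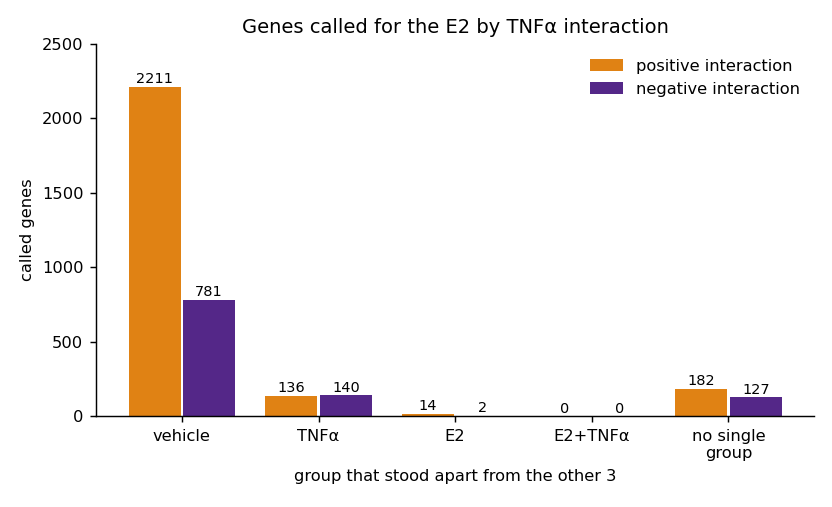
Number of genes called for the interaction (vertical axis) by the group whose mean stood apart from the other 3 (horizontal axis), split by sign. The vehicle class holds 2211 positive and 781 negative genes, the TNFα class 136 and 140, and the E2+TNFα class 0.

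The balance of positive and negative calls depended on the scaling. With library size alone in place of TMM (trimmed mean of M-values) factors, the median of all genes moved from -0.01 to 0.31, and 3064 of the 3651 calls were positive. Base composition moved with the interaction. The Spearman correlation across genes was -0.69 between the interaction and exon GC content (genes are not independent replicates), and the median interaction was 2.18 in the 2261 genes of lowest GC content (32.5% to 42.0%) and -0.84 in the 2261 of highest (59.0% to 76.6%). The lowest set held 1564 positive and 20 negative calls, and the highest held 34 positive and 461 negative calls. For E2+TNFα relative to E2 the medians in these sets were 0.24 and -0.05. With the trends with base composition and length taken out of each library, 1557 genes were called, 824 positive (7.29%) and 733 negative (6.49%). Of the vehicle class, 516 positive and 220 negative genes kept their call and sign, and of the TNFα class 54 and 65. The part of base composition in single interactions was not tested further. Of 82 genes named in the text, 21 lost their call with the trend removed, 2 gained one and 1 turned in sign. Values with the trend removed are given below for some of the named genes only.

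**Figure D2:**
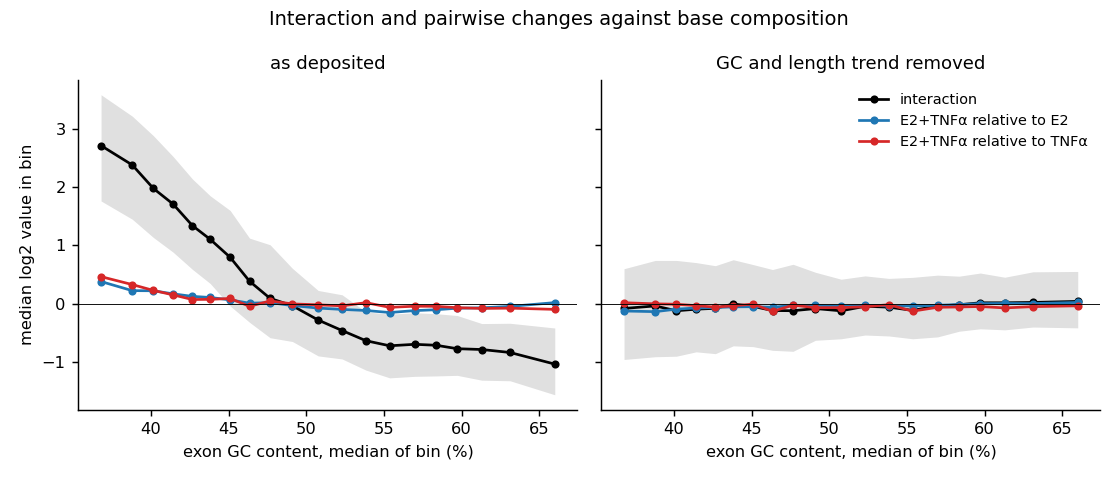
Median log2 value (vertical axis) in 20 bins of genes ordered by exon GC content (horizontal axis, median of the bin in percent) for the interaction and for the 2 contrasts without vehicle, as deposited on the left and with GC and length trends removed on the right. The shaded band holds the middle 50% of genes for the interaction, whose median falls from 2.71 in the lowest bin to below 0 in the highest as deposited.

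The class in which TNFα alone stood apart included many genes of the integrated stress response. Of 28 tested members of a list of ATF4 targets and related stress genes, 14 had a called negative interaction and 2 a called positive one, against 9.29% and 22.5% of all genes, and the list median was -1.53 against -0.01. For 12 of the 16 called members TNFα stood apart, and for 4 vehicle did. In the contrast without vehicle, 16 of 28 were called lower in E2+TNFα than in TNFα and 0 higher (2.01% and 3.55% of all genes, the same counts by DESeq2, and 24 lower and 2 higher at an unadjusted p under 0.05), and between E2+TNFα and E2 0 of 28 were called (0.407% of all genes) by edgeR or DESeq2, with 1 higher and 5 lower at an unadjusted p under 0.05. At that unadjusted p, 2422 of 11303 genes were lower and 2816 higher in E2+TNFα than in TNFα. Relative to E2, 1189 were lower and 1007 higher in E2+TNFα. TNFα alone raised 13 of 28 relative to vehicle (6.64% of all genes). With the GC and length trend removed 10 members were called, all negative, of which 8 were among the 14, and with a factor from housekeeping genes 7 were, of which 4 were among the 14. The names from this list beyond the 4 with the largest values (GDF15, PHGDH, DDIT4, TRIB3) were chosen after values had been seen.

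PHGDH, on chromosome 1 (hg38, 119711737 to 119744226, + strand), catalyses the first step of serine synthesis. Its level was 2.90, 2.61 and 2.96 CPM in vehicle, 3.15, 3.83 and 2.08 CPM in E2, 37.7, 32.6 and 48.4 CPM in TNFα, and 3.03, 2.20 and 2.82 CPM in E2+TNFα. The 3 TNFα libraries were far above the other 9, which overlapped. The interaction was -3.95 ± 0.33 (SE, n = 3 per group, edgeR adjusted p = 3.61e-07), and the change from TNFα to E2+TNFα was -3.89 ± 0.23. DDIT4, on chromosome 10 (hg38, 72273919 to 72276039, + strand), encodes a stress-induced inhibitor of mTORC1. It was at 71.6, 66.3 and 68.6 CPM in vehicle, 26.3, 25.2 and 33.6 CPM in E2, 659, 589 and 589 CPM in TNFα, and 24.4, 22.6 and 35.6 CPM in E2+TNFα. TNFα alone raised it above all other libraries, and both groups with E2 lay below vehicle and overlapped each other. The interaction was -3.20 ± 0.23 (SE, edgeR adjusted p = 9.21e-08).

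CHAC1, which degrades glutathione, was at 21.7 to 25.4 CPM in vehicle, 24 to 42.3 in E2, 139 to 164 in TNFα and 32.8 to 41.3 in E2+TNFα, with an interaction of -2.58. TRIB3, a pseudokinase induced by ATF4 and CHOP, was at 109 to 129 CPM in vehicle, 73.2 to 124 in E2, 382 to 640 in TNFα and 56.6 to 72.5 in E2+TNFα, with an interaction of -2.62. The stress sensor SESN2 reached 111 to 131 CPM in TNFα and at most 32.2 CPM in any other library. In all 3 genes the TNFα libraries did not overlap the others. GDF15, a secreted stress cytokine of the TGFβ superfamily, had 0.83 to 1.52 CPM in vehicle, 0 to 0.64 in E2, 18.1 to 46.8 in TNFα and 0 to 0.21 in E2+TNFα. Since counts with E2 were close to 0 in both groups, its interaction is imprecise (-4.83 ± 1.58), was called in 11 of 12 fits that each left out 1 library, and turned to 2.1 (adjusted p = 0.666 in edgeR's quasi-likelihood test) with the housekeeping factor. The change from TNFα to E2+TNFα, which needs no vehicle, was -7.58. It also rests on counts close to 0 in E2+TNFα, so its size is uncertain.

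ATF4 itself, on chromosome 22 (hg38, 39520559 to 39522686, + strand), was also highest in TNFα, by a smaller margin. Unlike DDIT4, it was lowest in vehicle, and E2 and E2+TNFα overlapped above vehicle. It was at 257, 251 and 270 CPM in vehicle, 362, 301 and 360 CPM in E2, 740, 721 and 736 CPM in TNFα, and 312, 289 and 351 CPM in E2+TNFα. The interaction was -1.60 ± 0.16 (SE, edgeR adjusted p = 1.02e-06) and -0.76, no longer called, with the GC trend removed. SHMT2, the mitochondrial enzyme that passes serine carbon to folate, had an interaction of -1.78, and PCK2, mitochondrial PEP carboxykinase, one of -1.73, and neither was called with the trend removed (-0.99 and -0.999). ASNS and PSAT1, which make asparagine and phosphoserine, did not reach the size threshold (-1.37 and -1.46). Both were lower in E2 than in vehicle, and ASNS was at 170 to 196 CPM in vehicle, 24.9 to 44.5 in E2, 324 to 434 in TNFα and 25.4 to 29.5 in E2+TNFα. DDIT3 (CHOP) and ATF3 had interactions of 0.25 and -0.26, and neither was called. SLC7A11, the cystine transporter, had a called positive interaction of 2.07 with vehicle apart, which turned to -1.32 with the GC and length trend removed.

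**Figure D3:**
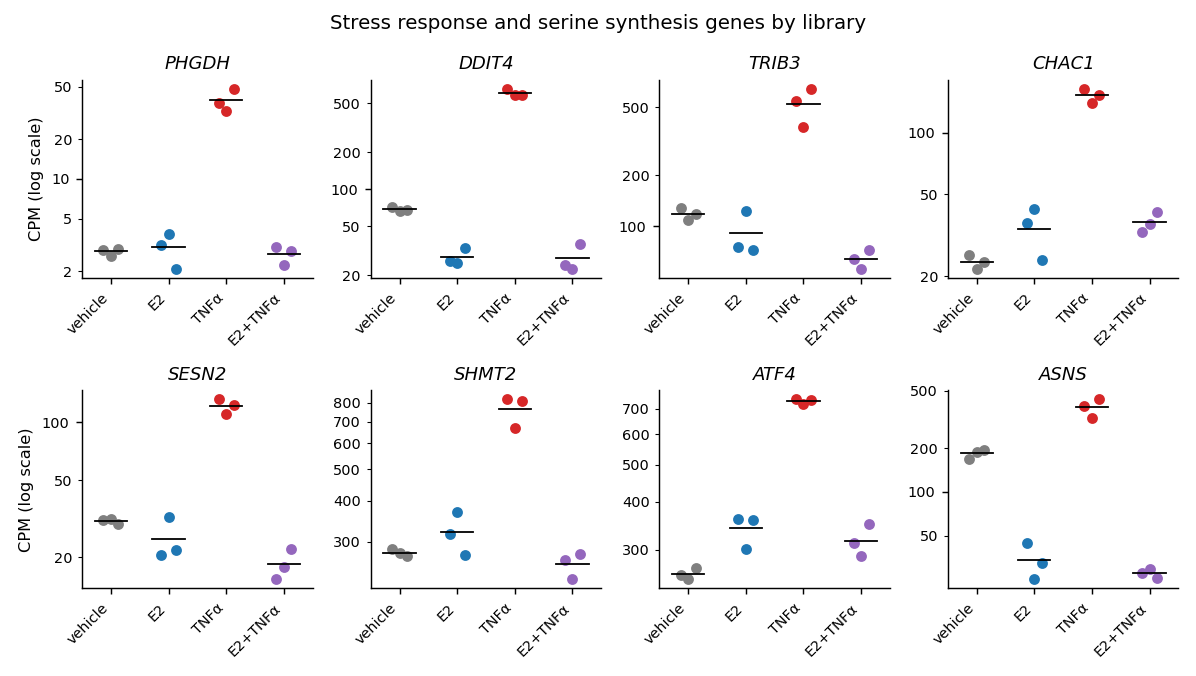
Level in CPM (vertical axes, log scale) of 8 stress response and serine synthesis genes in each library, with 3 points per group for vehicle, E2, TNFα and E2+TNFα and a line at the group mean. In each panel the 3 TNFα libraries lie above the other 9, and E2+TNFα overlaps E2 except for TRIB3, where its libraries lie below those of E2.

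To show how far these members share a known element, the 250 bases before and 50 after each RefSeq gene start (GRCh38.p14) were searched on both strands for the C/EBP-ATF element, spelled TGATGNAA, through which ATF4 acts. It occurred in a promoter of 6 of 24 list members with a promoter in the table (25%) and of 2.48% of 9028 tested genes. Among negative called genes with TNFα apart it occurred in 9.09% of 99. The 2 stretches shown are from a member with a called interaction and from one below the threshold, with the element in capitals.
CHAC1: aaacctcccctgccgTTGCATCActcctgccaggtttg
ASNS: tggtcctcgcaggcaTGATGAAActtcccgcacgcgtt
The CHAC1 stretch (chr15:40953247-40953284, + strand) carries the element on the opposite strand, and the ASNS stretch (chr7:97872454-97872491, - strand) carries it in the direction of the gene. A match describes letters in the window only. For PHGDH, DDIT4, TRIB3 and ATF4 none was found in the bases before the gene start.

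Other genes of the class rose or fell with TNFα alone. ASB2, a substrate receptor of ubiquitin ligases on chromosome 14 (hg38, 93934153 to 93976786, - strand), was at 0.58, 0.49 and 0.35 CPM in vehicle, 2.05, 2.87 and 2.08 CPM in E2, 29.5, 25.7 and 35.1 CPM in TNFα, and 2.78, 1.78 and 2.55 CPM in E2+TNFα. The TNFα libraries were far above the rest, and the 2 groups with E2 overlapped. Its interaction was -5.93 ± 0.38, NLRP12, a regulator of inflammation, followed with -4.79 ± 0.35, and LAMA4, a laminin chain, with -3.10 ± 0.48 (SE, edgeR adjusted p from 3.39e-08 to 5.10e-05). Of 18 dual-specificity phosphatases, Sprouty proteins and related feedback genes of growth factor signalling, 1 was called positive (5.56%) and 2 negative (11.1%), against 22.5% and 9.29% of all genes. The 2 negative ones, both with TNFα apart, were DUSP5, an ERK phosphatase, with -2.23 and ERRFI1, an inhibitor of the EGF receptor, with -1.83. The EGF receptor ligand HBEGF, also with TNFα apart, had -1.69. HBEGF was at 36.7 to 40.6 CPM in vehicle, 43 to 56.5 in E2, 147 to 160 in TNFα and 54.7 to 65.7 in E2+TNFα. With the GC and length trend removed, ERRFI1 was called at -3.07 and DUSP5 and HBEGF fell short at -1.41 and -1.28. KLF2, a zinc finger factor, (-2.22) also lost its call (-0.99), and PDE4B, a cAMP phosphodiesterase induced by NFκB, (-2.24) kept it (-3.35).

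COL17A1 led the positive side. It encodes a transmembrane collagen of hemidesmosomes and lies on chromosome 10 (hg38, 104031288 to 104085880, - strand). Its level was 74.4, 75.7 and 71.9 CPM in vehicle, 83.1, 110 and 117 CPM in E2, 4.18, 4.27 and 2.08 CPM in TNFα, and 116, 107 and 145 CPM in E2+TNFα. TNFα alone lowered it below all other libraries, and the E2 and E2+TNFα groups overlapped. The interaction was 4.61 ± 0.29 (SE, edgeR adjusted p = 3.05e-08), 5.05 with the GC trend removed and 5.33 with the housekeeping factor. TGFA, an EGF receptor ligand, behaved the same way from a higher level with E2: it was at 127 to 178 CPM in vehicle, 527 to 680 in E2, 25.9 to 35.9 in TNFα and 595 to 699 in E2+TNFα, and the interaction was 2.33 ± 0.22. HBEGF and TGFA, ligands of the same receptor, thus had interactions of opposite sign, and TNFα was the group that stood apart for both. KRT17, a basal keratin, was at 3.9 to 4.45 CPM in vehicle, 12.4 to 20.3 in E2, 0.47 to 0.89 in TNFα and 13.4 to 18.7 in E2+TNFα. BDH2 (4.31) and PSG6 (4.20) showed the same order at levels of at most 3.35 CPM. HMGCS1, an enzyme of cholesterol synthesis, (2.95) and the interferon-stimulated IFIT2 (2.42) were called as well, but not with the GC trend removed (0.62 and 0.75), and IFIT2 turned to -1.01 with the housekeeping factor. Of 28 interferon-stimulated genes, 10 were called positive (35.7%) and 1 negative (3.57%), against 22.5% and 9.29% of all genes, and TNFα stood apart for 2 of the 11. With the GC trend removed 1 was called, and the list median moved from 0.53 to 0.12. In the contrasts without vehicle, 12 of the 28 were called higher in E2+TNFα than in TNFα and 0 lower (3.55% and 2.01% of all genes). Between E2+TNFα and E2 0 were called. S100G had 0 counts in the 3 TNFα libraries, which allows up to 0.0984 to 0.154 CPM (3 counts per library), against 0.24 to 0.59 CPM in E2+TNFα, so no fold is given for it.

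Genes of the NFκB pathway and its cytokines did not form 1 class. They were taken from 7 lists with 92 tested genes: chemokines of 2 families, interleukins and colony-stimulating factors, NFκB subunits and kinases, its feedback inhibitors, ligands and receptors of the TNF family, and effector genes. The interaction was called positive for 13 of them and negative for 16, against 22.5% and 9.29% of all genes, and was below 0 for 61. The median was -0.52, and it was -0.06 with the GC trend removed and 0.17 with the housekeeping factor, so the sign of the median was not the same in each fit. Vehicle stood apart for 13 of the 29 called, E2 for 3, TNFα for 1, and no single group for 12. The 2 responses to TNFα stand side by side as follows. From vehicle to TNFα 35 of the 92 rose and 8 fell (6.64% and 20% of all genes). From E2 to E2+TNFα 21 rose and 0 fell by edgeR and by DESeq2. Of all 11303 genes 44 rose in that contrast by edgeR (0.389%), so that these lists held 21 of the 44. At an unadjusted p under 0.05, 47 of the 92 rose and 2 fell, against 1007 and 1189 of all genes. In E2+TNFα relative to TNFα, 5 of the 92 were called higher and 14 lower by edgeR (3.55% and 2.01% of all genes).

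Induced in both settings but less with E2 were TNF, IRF1, LTB and others. TNF, on chromosome 6 (hg38, 31575567 to 31578336, + strand), was at 0.36, 0.26 and 0.33 CPM in vehicle, 1.85, 0.96 and 0.90 CPM in E2, 38.7, 37.4 and 34.0 CPM in TNFα, and 9.83, 7.56 and 8.90 CPM in E2+TNFα. No groups overlapped, E2 alone was above vehicle, and E2+TNFα was between E2 and TNFα. TNFα raised TNF by 6.84 ± 0.27 (log2) without E2 and by 2.74 ± 0.26 with it, and the interaction was -4.10 ± 0.38 (SE, edgeR adjusted p = 6.96e-07). IRF1, an interferon regulatory factor on chromosome 5 (hg38, 132481609 to 132490777, - strand), was at 16.5, 14.9 and 15.9 CPM in vehicle, 26.3, 34.6 and 28.1 CPM in E2, 386, 357 and 392 CPM in TNFα, and 123, 112 and 133 CPM in E2+TNFα. Its groups were in the same order, also without overlap. The rises were 4.58 ± 0.14 and 2.05 ± 0.13, and the interaction was -2.53 ± 0.17 (SE, edgeR adjusted p = 6.57e-08). LTB, lymphotoxin beta, (-4.66) was raised by E2 alone to 35.5 to 41.2 CPM from 2.70 to 4.23 CPM in vehicle, and reached 231 to 325 CPM in TNFα and 98.2 to 178 CPM in E2+TNFα. These 3 remained called with the GC trend removed (-3.33, -2.02 and -3.48) and with the housekeeping factor.

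Growth factors and interleukins varied in how E2 alone placed them. The change of CSF1, the macrophage growth factor, with TNFα was 3.29 without E2 and 1.43 with it (interaction -1.86). That of CSF3, the granulocyte growth factor, was 3.20 and 1.49 (-1.71). Neither interaction was called with the GC trend removed (-1.30 and -0.77). IL6 was at 130 to 147 CPM in vehicle, 90.0 to 104 in E2, 935 to 1096 in TNFα and 323 to 406 in E2+TNFα. Its interaction of -0.95 ± 0.17 had an adjusted p of 1.43e-04 (edgeR) but was under the size threshold. IL1B was at 225 to 236 CPM in vehicle, 26.5 to 39.3 in E2, 1531 to 1711 in TNFα and 148 to 158 in E2+TNFα. Both groups with E2 were below vehicle, and the 2 rises of IL1B were 2.80 and 2.28, with an interaction of -0.52. For IL1B, then, E2+TNFα was 3.39 (log2) below TNFα while the response to TNFα differed little between the 2 settings. IL11, a member of the IL6 family, stayed at 23.4 to 28.6 CPM in E2+TNFα and 23.8 to 30.6 in E2 but rose from 159 to 179 in vehicle to 331 to 697 CPM in TNFα. Its interaction was -1.63 ± 0.29 (SE), and -0.78, not called, with the GC trend removed. ALOX5AP, needed for leukotriene synthesis, had low levels (at most 9.26 CPM) and an interaction of -1.47 that was under the size threshold.

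**Figure D4:**
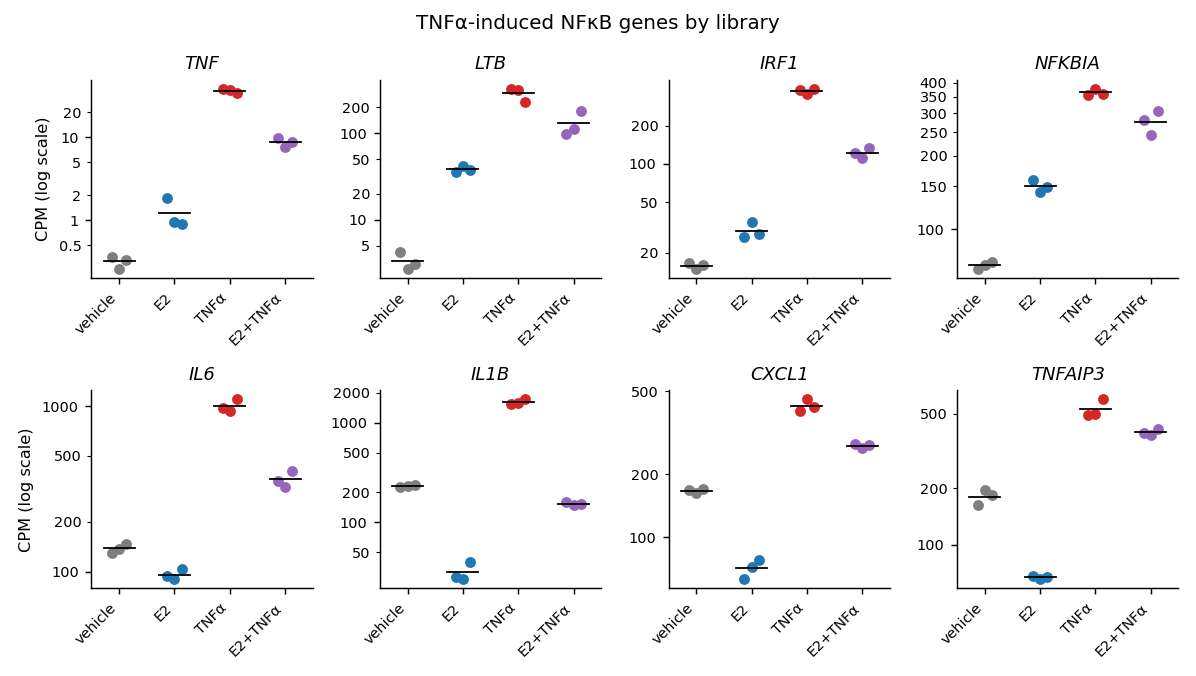
Level in CPM (vertical axes, log scale) of 8 NFκB genes in each library, with 3 points per group for vehicle, E2, TNFα and E2+TNFα and a line at the group mean. In all 8 panels TNFα is highest, and E2+TNFα lies between E2 and TNFα, with a smaller step from E2 for TNF and IRF1 and a larger one for CXCL1 and TNFAIP3 than from vehicle to TNFα.

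The inhibitors of the pathway went in both directions. NFKBIA, which encodes IκBα and lies on chromosome 14 (hg38, 35401510 to 35404754, - strand), was at 68.8 to 73.2 CPM in vehicle, 142 to 159 in E2, 356 to 378 in TNFα and 245 to 305 in E2+TNFα. Its changes with TNFα were 2.36 without E2 and 0.88 with it, and the interaction of -1.48 ± 0.15 (SE) missed the size threshold. ZC3H12A, a ribonuclease that degrades cytokine mRNA, had a called interaction of -2.26. With the housekeeping factor 0 members of the feedback list were called. TNFAIP3, the ubiquitin-editing inhibitor A20, was at 162 to 195 CPM in vehicle, 65.4 to 68.4 in E2, 492 to 597 in TNFα and 385 to 415 in E2+TNFα. The E2 libraries were the lowest, and TNFα raised it by 2.57 with E2 and by 1.56 without, an interaction of 1.01 ± 0.16. The chemokines CXCL1 (0.61), CXCL2 (0.37) and CXCL3 (0.68), which attract neutrophils, also started lower with E2 and none was called. CXCL2 was at 71.7 to 74.4 CPM in vehicle, 13.3 to 20.0 in E2, 189 to 233 in TNFα and 59.7 to 69.1 in E2+TNFα. ICAM1, the leukocyte adhesion molecule, had -0.62 and was not called. The subunits RELB, NFKB1 and NFKB2 had interactions of -0.23, 0.26 and -0.04, and RELA one of -0.99, and none was called.

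BIRC3, an inhibitor of apoptosis, had the largest positive value among the feedback genes. It was at 58.5, 78.3 and 73.9 CPM in vehicle, 36.0, 21.9 and 22.4 CPM in E2, 11, 12 and 10.1 CPM in TNFα, and 119, 191 and 49.1 CPM in E2+TNFα. TNFα alone was lowest. E2+TNFα ranged widely, with 2 libraries above all others and 1 below vehicle. The interaction was 4.81 ± 0.50 (SE, edgeR adjusted p = 1.63e-06), 1.64 with the GC trend removed and 0.58, not called, with the housekeeping factor. Exons of BIRC3 have 36.2% GC, in the range where all genes tended to positive values.

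To place these genes side by side with their shared element, the same promoter windows were searched for the κB consensus bound by NFκB dimers. It occurred in a promoter of 25 of 61 genes of 6 lists (41.0%, the subunits and kinases left out) and of 17.5% of 9028 tested genes. The share was 39.5% of 38 with an interaction below 0 and 43.5% of 23 above 0. The stretches shown come first from genes with values below 0 (NFKBIA, IRF1, LTB, IL6) and then above 0 (TNFAIP3, CXCL1, CXCL2, BIRC3), with the match in capitals, which may be on either strand.
NFKBIA: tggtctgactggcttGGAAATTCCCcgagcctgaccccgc
IRF1: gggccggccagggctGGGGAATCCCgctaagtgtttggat
LTB: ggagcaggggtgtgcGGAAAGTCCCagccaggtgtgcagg
IL6: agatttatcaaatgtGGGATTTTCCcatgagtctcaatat
TNFAIP3: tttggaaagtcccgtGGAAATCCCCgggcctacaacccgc
CXCL1: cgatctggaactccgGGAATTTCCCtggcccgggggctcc
CXCL2: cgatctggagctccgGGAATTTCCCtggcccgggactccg
BIRC3: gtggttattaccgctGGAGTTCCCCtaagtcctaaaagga
The matches began 81 (NFKBIA), 50 (IRF1), 86 (LTB), 73 (IL6), 55 (TNFAIP3), 78 (CXCL1), 77 (CXCL2) and 135 bases (BIRC3) before the gene start. The CXCL1 (chr4:73869300-73869339, + strand) and CXCL2 (chr4:74099248-74099287, - strand) stretches hold the same κB match. The others lie at chr14:35404806-35404845 (NFKBIA, - strand), chr5:132490799-132490838 (IRF1, - strand), chr6:31582487-31582526 (LTB, - strand), chr7:22727112-22727151 (IL6, + strand), chr6:137867189-137867228 (TNFAIP3, + strand) and chr11:102317334-102317373 (BIRC3, + strand).

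E2 alone stood apart for 16 called genes, 14 positive and 2 negative (0.124% and 0.0177% of all genes). In each of the 14 the fitted level was below vehicle in E2 and higher in E2+TNFα than in E2, and in the other 2 the order was the reverse. CXCL8, the neutrophil chemokine interleukin 8 on chromosome 4 (hg38, 73740506 to 73743716, + strand), was at 889, 1103 and 1183 CPM in vehicle, 70.1, 13.9 and 33.7 CPM in E2, 326, 592 and 362 CPM in TNFα, and 363, 696 and 119 CPM in E2+TNFα. The E2 libraries were lowest, TNFα alone was below vehicle, and the 2 groups with TNFα overlapped. The interaction was 4.60 ± 0.75 (SE, edgeR adjusted p = 7.58e-05), 1.57 with the GC trend removed, and -2.51 with the housekeeping factor. That factor is a covariate in the fit and not a scaling, so the sign depended on the model fitted. IL1A, at 5.90 to 15.3 CPM in E2 and 26.2 to 109 CPM in E2+TNFα, had an interaction of 2.05 that was 0.10 with the GC trend removed and -3.22 with the housekeeping factor. In both genes the replicates with E2 spread over more than the 3 vehicle libraries did.

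HIVEP2, a zinc finger protein that binds κB elements, had closer replicates. It was at 49.5, 55.9 and 49.3 CPM in vehicle, 9.51, 10.5 and 13 CPM in E2, 28.5, 33.0 and 34.1 CPM in TNFα, and 33.8, 31.9 and 28.7 CPM in E2+TNFα. E2 was lowest, vehicle highest, and the 2 groups with TNFα overlapped. The interaction was 2.21 ± 0.20 (SE, edgeR adjusted p = 6.93e-07) and, under the size threshold, 1.28 with the GC trend removed. GPR35, a G protein-coupled receptor, showed the same order at levels of at most 3.37 CPM, with an interaction of 2.22 that was 3.14 with the trend removed. BATF, an AP-1 family factor, was highest in E2 (3.35 to 8.45 CPM against at most 2.76 CPM elsewhere), with an interaction of -1.73 that was not called with the trend removed (-0.58). The chemokine CCL20 had 0 counts in the 3 E2 libraries, which allows up to 0.19 to 0.392 CPM (3 counts per library), 0.34 to 0.44 CPM in vehicle, 2.03 to 3.36 CPM in TNFα and 0.48 to 1.68 CPM in E2+TNFα, so no fold is given for it.

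The vehicle class holds the largest interactions. In it the means of the 3 treated groups had a median range of 0.55 (log2), and they did not lie together for each gene. Of 35 chaperones and members of the unfolded protein response, 14 were called positive (40%) and 1 negative (2.86%), against 22.5% and 9.29% of all genes, all 15 with vehicle apart, and the list median was 1.19. HSPA1A, the inducible HSP70 on chromosome 6 (hg38, 31815514 to 31817942, + strand, 1 exon), was at 1538, 1490 and 1553 CPM in vehicle, 135, 146 and 135 CPM in E2, 63.3, 61.8 and 55.9 CPM in TNFα, and 133, 135 and 201 CPM in E2+TNFα. The vehicle libraries were far above the other 9. The interaction was 4.83 ± 0.21 (SE, edgeR adjusted p = 6.20e-10), whereas the changes without vehicle were 0.17 from E2 to E2+TNFα and 1.37 from TNFα to E2+TNFα. HSPA1B, a nearly identical copy with which it can share reads, had 4.55. The endoplasmic reticulum chaperones HSP90B1 (3.704) and HSPA5 (2.07) were called, and CALR, at 1411 to 1935 CPM in all libraries, was not (-0.12). With the GC trend removed 11 of the 35 were called positive and 0 negative (7.29% and 6.49% of all genes), and the median was 0.87. From E2 to E2+TNFα 0 of the 35 were called by edgeR or DESeq2. At an unadjusted p under 0.05, 3 were higher and 3 lower, against 1007 and 1189 of all 11303 genes. From TNFα to E2+TNFα 1 rose and 1 fell by edgeR (3.55% and 2.01% of all genes), and 1 rose and 2 fell by DESeq2. At an unadjusted p under 0.05, 15 of the 35 were higher and 4 lower in that contrast, against 2816 and 2422 of all genes.

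Vehicle also stood apart for most called genes of further lists, whose shares are to be read against 22.5% positive and 9.29% negative of all genes. Of 158 zinc finger genes on chromosome 19, 81 were called positive (51.3%) and 14 negative (8.86%, vehicle apart for 85 of the 95), and the median fell from 1.56 to 0.30 with the GC trend removed. Of 56 cell cycle and mitosis genes, 18 were called positive (32.1%) and 3 negative (5.36%), with a median of 0.14. With the trend removed 5 were positive and 0 negative (7.29% and 6.49% of all genes), and the median was 0.28. With the housekeeping factor 0 were positive and 2 negative, against 608 and 510 of all genes, and the median was -0.14. CENPE, a mitotic kinesin, was at 23.9 to 44.5 CPM in vehicle and at 1.03 to 3.95 CPM in the other 9 libraries. Of 41 histone genes of the replication clusters, whose mRNAs lack a poly(A) tail, 0 were called positive and 19 negative (46.3%) by edgeR, with the same counts by DESeq2 (0 and 28 at an unadjusted p under 0.05, median -1.38, and -0.58 with the trend removed). At that unadjusted p, 4272 of all genes were positive and 4056 negative. HIST1H1E, a linker histone, was at 8.25 to 10.5 CPM in vehicle, 29.7 to 31.7 in E2, 50.8 to 77.5 in TNFα and 25.9 to 33.6 in E2+TNFα. Of 13 S100 proteins, calcium-binding proteins of few exons, 8 were called negative (61.5%) and 1 positive (7.69%), and 1 of each with the trend removed. Genes with 1 exon were 2.95% of all tested genes, 11.8% of the negative and 1.08% of the positive vehicle class.

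Of 82 cytosolic ribosomal proteins, 17 were called positive (20.7%) and 2 negative (2.44%), against 22.5% and 9.29% of all genes, with a median of -0.10. With the GC trend removed 16 were positive and 4 negative, against 7.29% and 6.49% of all genes, and the median was 0.45. RPL9, at 627 to 701 CPM in vehicle and 19.3 to 46.5 CPM elsewhere, had 4.57 and RPS21, at 357 to 416 CPM in vehicle and 18 to 29.1 CPM elsewhere, 3.87. These genes have processed copies with which reads can be shared, so their values are uncertain. Of 81 nuclear genes of oxidative phosphorylation, 5 were called positive (6.17%) and 12 negative (14.8%), with a median of -0.63. Of 11 NFκB subunits and kinases 3 were positive and 1 negative, with vehicle apart for 3 of the 4. From E2 to E2+TNFα, 0 members of the ribosomal, respiratory and cell cycle lists were called by edgeR or DESeq2, against 46 of 11303 genes in all by edgeR. At an unadjusted p under 0.05, with no size threshold, 61 of the 82 ribosomal and 40 of the 81 respiratory genes were lower in E2+TNFα. Of either list 0 were higher, and the median changes were -0.53 and -0.30. Of the cell cycle genes 4 were higher and 7 lower. Of all 11303 genes, 1007 were higher and 1189 lower at that p.

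**Figure D5:**
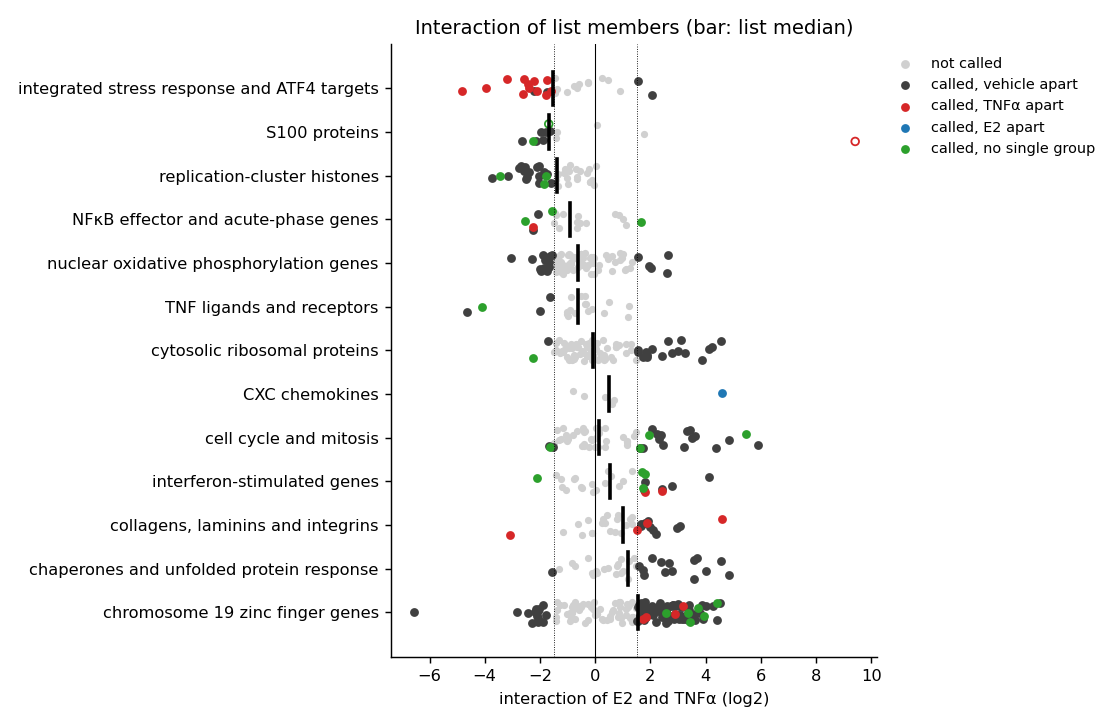
Interaction (horizontal axis, log2) of each tested member of 13 gene lists (rows), with a bar at the list median, dotted lines at the size threshold of 1.5 and colours for the group that stood apart among called genes. Open circles mark genes for which some group has no library above 3 counts, and whose fitted value is no estimate of size. Stress response genes with TNFα apart lie on the left, and called members of the chaperone and zinc finger lists with vehicle apart on the right.

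Single genes of this class were far larger. EDARADD, an adaptor of the ectodysplasin receptor on chromosome 1 (hg38, 236394380 to 236484708, + strand), was at 8.30, 7.36 and 8.05 CPM in vehicle and at 1477 to 2892 CPM in the other 9 libraries, with an interaction of -8.15 ± 0.21 (SE, edgeR adjusted p = 1.98e-12). The change from E2 to E2+TNFα was -0.54, and from TNFα to E2+TNFα 0.15. NHSL2 (-8.17) was at 0.26 to 0.58 CPM in vehicle and 92.8 to 186 CPM in the others. The study, whose methods include a batch correction, lists smaller rises from vehicle to TNFα for both genes. What makes the difference was not tested. The matrix metalloproteinases differed among themselves: MMP1 (4.74) and MMP3 (5.10), a collagenase and a stromelysin, were highest in vehicle, and the gelatinase MMP2 (-4.35) was lowest there. MMP3 was at 95.5 to 106 CPM in vehicle and 2.71 to 4.27 CPM in the other 9 libraries. MMP2 was at 0.46 to 0.87 CPM in vehicle, 3.63 to 6.96 in E2, 11.3 to 15.1 in TNFα and 4.97 to 5.84 in E2+TNFα. The immediate early factors FOS (4.78) and EGR1 (2.82) were also highest in vehicle, at 13.6 to 14.5 and 57.7 to 58.3 CPM, against 0.21 to 1.63 and 9.49 to 16.9 CPM elsewhere.

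Of 16 tested estrogen receptor targets, 3 were called positive (18.8%) and 2 negative (12.5%), against 22.5% and 9.29% of all genes, a share close to the background. The median was -0.46, and with the housekeeping factor it was 0.09. In the contrast with TNFα present in both groups, 7 of the 16 were called higher in E2+TNFα than in TNFα and 0 lower (3.55% and 2.01% of all genes). GREB1, a cofactor gene induced by estrogen receptors, was at 3.29, 3.43 and 3.61 CPM in vehicle, 45, 48.3 and 61.7 CPM in E2, 4.61, 3.69 and 4.06 CPM in TNFα, and 50.3, 49.5 and 58.5 CPM in E2+TNFα. The groups with and without E2 were far apart, and within each the libraries with and without TNFα were close. The interaction was -0.23 ± 0.22 (SE, edgeR adjusted p = 0.361). IGFBP4, a binding protein of insulin-like growth factors, was at 686 to 798 CPM in vehicle, 9123 to 12660 in E2, 1966 to 2579 in TNFα and 7909 to 10150 in E2+TNFα. Its interaction of -1.83 came with a rise under TNFα alone and was -0.80, not called, with the GC trend removed. KRT13, a keratin on chromosome 17 (hg38, 41500981 to 41505613, - strand), was at 1.07 to 1.33 CPM in vehicle, 137 to 159 in E2, 0 to 0.20 in TNFα and 116 to 153 in E2+TNFα. TNFα lowered it without E2 and not with it, and the interaction was 3.39 ± 0.45 (SE, edgeR adjusted p = 1.25e-05), 4.27 with the trend removed. PADI4, which converts arginine to citrulline, rose with either agent: it was at 0.40 to 0.44 CPM in vehicle, 37.1 to 44.8 in E2, 3.49 to 4.76 in TNFα and 29.9 to 44.3 in E2+TNFα, with an interaction of -3.46.

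ESR2, which encodes ERβ and is driven here mainly by the dox-inducible construct, was at 487, 457 and 474 CPM in vehicle, 322, 304 and 293 CPM in E2, 282, 255 and 228 CPM in TNFα, and 433, 405 and 508 CPM in E2+TNFα. Vehicle and E2+TNFα overlapped above the other 2 groups. The interaction of 1.44 ± 0.16 (SE, edgeR adjusted p = 3.30e-06) was under the size threshold, was called in 3 of 12 fits that each left out 1 library, and reached 1.97 with the housekeeping factor.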

How the data were processed

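Poly(A) RNA of 12 cultures of MDA-MB-231-ERβ cells was sequenced from stranded libraries. The deposited values are whole-number counts of reads per gene, which the authors assigned with featureCounts after mapping to hg38 with TopHat2 2.1.0 (per the submitters' processing notes). The sources used here do not show that the batch correction named in the study's methods was applied to these counts, and they do not give its batches. From the table, 46 repeated rows and 70 second symbols of a locus listed already were dropped. Counts were normalized with TMM and fitted with 4 group means in edgeR 4.0.16 (R 4.3.3, quasi-likelihood F test), and p was adjusted over 11303 genes. Thresholds and the RPKM minimum follow the study, which does not give the number of libraries for that minimum. Library totals of 7.65 to 39.9 M (mega) reads make counting error small except for genes with few reads, and bounds from 3 counts cover counting error only. CPM were computed with TMM factors. The unit of replication is a dish, so p-values measure the spread between dishes of 1 line. Replicate numbers did not pair the samples (correlation of deviations -0.48 to 0.47 over 18 pairs with the same number, above 0.1 in 5). The alternatives were other size factors, filters and a size threshold of 1, DESeq2 1.42.0, a replicate block, a factor from 24 housekeeping genes computed as in RUVg, removal of loess trends (span 0.3) with GC content and length, and each library left out. In a simulation with 11303 genes, the fitted interactions were removed and known ones were added to the E2+TNFα mean of some genes. There edgeR recovered 90 of 100 genes changed by 2 (log2) and 99 of 100 changed by 3, with 4 other calls. Counts were drawn independently for each gene, with no trend of the interaction with base composition. These figures therefore do not give the share of false calls in the data. The comparison, the gene lists and the genes named were chosen with earlier results of these data known. Genes named were 15 NFκB, E2 and receptor genes, the 3 largest of each sign for each group that stood apart, a mean of 1 CPM or more required, and up to 4 of each list, and any beyond these were chosen after values were seen. Promoters were matched to 9028 of the tested genes by symbol.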

Additional observations from a re-analysis of the deposited data

Results flagged for a closer look

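The response to TNFα differed between cells with and without E2 for 3593 genes by the interaction term itself (edgeR, log2 of at least 1.5), and 83.3% of these had the vehicle group apart. Single outlying libraries were not tested for in groups of 3. In pairs of replicates the chi-square per degree of freedom was 55.5 and 71.1 for the pairs with E2+TNFα replicate 3 and 10.2 to 36.9 for the other 10 pairs, and calls ranged from 3257 to 3918 when each library was left out in turn.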

How the results depend on the processing

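Without the trends in GC content and length 1557 genes were called (824 positive), and 1554 (819 positive) with the replicate block added. With the housekeeping factor 1118 were called (608 positive, 510 negative). This factor was -0.50 to -0.44 in vehicle libraries and -0.02 to 0.37 in the other 9. It was fitted beside the group means, so its slope came from differences between replicates and was carried across that gap. Values with the housekeeping factor are uncertain for this reason. With library size alone 587 were negative. At a size threshold of 1 there were 5682 calls, 2312 of them negative. Vehicle stood apart for 846 called genes with the housekeeping factor and for 1074 and 1071 without the trends (the latter with the block). TNFα stood apart for 102 with the housekeeping factor, 533 at a threshold of 1 and 121 when the gap had to exceed 2 times the range. E2 stood apart for 35 without a filter, 5 with at least 10 counts in every library, 8 with the housekeeping factor, 36 at a threshold of 1 and 6 with the larger gap. For E2+TNFα these counts were 1 with library size alone, 4 without a filter, 3 and 3 without the trends (the latter with the block) and 4 at a threshold of 1. No single group stood apart for 162 with the housekeeping factor, 676 at a threshold of 1 and 1199 with the larger gap. Leaving out each library in turn gave 3257 to 3918 calls. Those with E2 apart ranged from 13 to 27 (27 without E2 replicate 3), those with E2+TNFα apart from 0 to 2, and those with no single group apart from 244 to 554 (554 without E2+TNFα replicate 3). Called members of the stress response list were 7 with the housekeeping factor and 10 without the trends, with or without the block. With the replicate block alone 3585 genes were called, 3568 of them shared with the 3593, and since the numbers do not pair the samples this is only a check. Of 82 genes named in the text, 26 lost their call with the housekeeping factor, 3 gained one and 5 turned in sign. Signs turned with the housekeeping factor for GDF15 (2.1), IFIT2 (-1.01), CSF3 (0.54), CXCL8 (-2.51) and IL1A (-3.22), and without the trends for SLC7A11 (-1.32, and -1.31 with the block). The cause was not tested. With size factors of DESeq2, no filter, at least 10 counts in every library, DESeq2 or the repeated entries kept, the total was 2945 to 4052. Depth limits genes with few counts in E2 libraries, the shallowest group.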
